A study of Mus musculus with 2 samples.

Results

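Levels of 10 genes of transforming growth factor beta (TGF-beta) signaling and of the inhibitor of DNA binding (Id) family were read from single-cell RNA libraries of sorted mouse brain microglia. They are Tgfb1, Tgfbr1, Tgfbr2, Smad3, Smad7, Ski, Skil, Id1, Id2 and Id3, taken by symbol from the 55450 genes of the deposited gene lists, and all 10 were found. The animals were adult male mice of the inbred strain C57BL/6J, given normal saline (3 mice, the awake group) or 100 mg/kg sodium pentobarbital, a barbiturate (3 mice, the anesthesia group). Both groups were digested, passed over a Percoll gradient and sorted as CD11b-positive cells with low CD45, the usual microglia gate, and 1 library per group was made with the 10x Genomics 3' kit. Pooling of the 3 mice before capture is not given in the sources used here. With 1 library per group no difference below has a replicate check or a test. The 95% intervals cover counting error only, and state, mouse, handling and library cannot be told apart.

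TGF-beta1 is secreted in a latent form, is released from its carrier proteins, and binds a receptor pair in which the type 2 receptor Tgfbr2 activates the type 1 receptor Tgfbr1. The receptor phosphorylates Smad2 and Smad3, which enter the nucleus with Smad4 and act on target genes. Smad7 blocks the receptor, and Ski and its relative Skil (SnoN) hold SMAD complexes in a repressed state; Smad7 and Skil are themselves TGF-beta targets, so they form feedback loops. Id1, Id2 and Id3 lack a DNA-binding region and sequester E proteins, and Id1 and Id3 are classical targets of the related bone morphogenetic protein (BMP) branch, which is active in brain endothelium. In the adult brain, TGF-beta signaling is known to be needed for the mature microglial expression program. In GENCODE M21 (GRCm38) all 10 are protein-coding, and none shares exon sequence with another gene on either strand. Tgfb1 spans chr7:25687002-25705077, Ski chr4:155154075-155222592, Skil chr3:31095058-31122577, Id1 chr2:152736251-152737410, Id2 chr12:25093799-25097140 and Id3 chr4:136143497-136145755.

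The bases before the start site are shown for Tgfb1 and Ski, which lay on opposite sides of 0 in microglia-like cells. They come from RefSeq (build GRCm38.p6), which matched 7 of the 10 genes (Tgfb1, Tgfbr1, Tgfbr2, Smad3, Ski, Id2 and Id3). Capitals mark GGCGCC, a GC-rich SMAD-binding motif that reads the same on both strands. The other SMAD motif searched was CAGAC, which reads GTCTG on the opposite strand, and the motifs do not overlap in letters. The Tgfb1 stretch is the 250 bases at chr7:25686752-25687001 on the plus strand. The Ski stretch is the first 193 of the 250 bases, at chr4:155222593-155222785 on the minus strand, since GENCODE M21 places the last 57 in an exon.
Tgfb1: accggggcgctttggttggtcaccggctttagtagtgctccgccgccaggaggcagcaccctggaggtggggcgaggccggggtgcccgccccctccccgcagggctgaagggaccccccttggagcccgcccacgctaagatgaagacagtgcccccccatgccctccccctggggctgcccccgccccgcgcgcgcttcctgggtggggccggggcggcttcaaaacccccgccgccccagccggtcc
Ski: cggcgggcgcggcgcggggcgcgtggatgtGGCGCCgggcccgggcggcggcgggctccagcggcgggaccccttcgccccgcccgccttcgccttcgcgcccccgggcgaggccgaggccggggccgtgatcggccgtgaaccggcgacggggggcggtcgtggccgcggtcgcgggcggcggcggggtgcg
GGCGCC occurred 1 time in the Ski window, in the Id2 window and at the first of the Tgfbr1 start sites, and in 9.59% of all 32851 promoter windows of 250 bases. CAGAC or GTCTG occurred 2 times in the Id3 window and 1 time at Tgfbr2 and at the second Tgfbr1 start site, against 42.2% of all windows. The Tgfb1 and Smad3 windows held neither. Annotated GENCODE exons covered the whole Id3 window, and the longest stretch free of them in the Id2 window was 89 of 250 bases, so the letters there are not all upstream of transcribed sequence. A match is a description of the letters and not a bound site.

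The awake library held 53262885 unique molecular identifiers (UMIs, each marking 1 captured RNA molecule) in 8600 barcodes, and the anesthesia library 61139016 in 9412. After filtering, 8223 and 8944 cells were kept, and 11 of the kept barcode sequences occurred in both libraries. Clustering without the 10 genes or the wider pathway lists gave 7511 awake and 8446 anesthesia microglia-like cells, 113 and 123 endothelial-like cells, and 50 and 39 border-associated macrophage-like cells (macrophages of the meninges and vessel walls). All 10 microglia markers and all 10 endothelial markers were seen in over 25% of the cells of their class in both libraries. The macrophage class showed 9 of 10 of its markers at that level. The gate is meant to leave macrophages and endothelium out, so these are the few cells of both classes that passed it. RNA of microglia was present in both small classes and differed between the libraries: 7 microglia markers (P2ry12, Tmem119, Sall1, Siglech, Fcrls, Olfml3 and Gpr34) stood in endothelial-like cells at a median of 18.6% (15.4 to 20.2) of their microglia-like level in the awake library and 43.0% (38.7 to 51.6) in the anesthesia library. In macrophage-like cells they stood at 57.04% (50.1 to 79.4) and 87.3% (82.4 to 93.7), and none of the 7 was at 0. Values for these classes are given beside that measurement.

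In microglia-like cells, the SMAD repressors Ski and Skil were the only members at least 1.5-fold higher in the anesthesia library, Id2 was 1.31-fold higher, and Tgfb1 was 1.19-fold lower. Neither repressor reached 1.5-fold as an average within clusters, nor did Skil with the trend on transcript GC content and length taken out. The receptors Tgfbr1 and Tgfbr2 and the feedback inhibitor Smad7 stood within 1.08-fold of their awake level. All 10 members had at least 200 UMIs over both libraries, the minimum for a gene to count as measured. The count was 2 of 10 higher by 1.5-fold, where 13.3% of the 11404 measured genes were, and 0 of 10 lower, where 11.8% were. The median log2 ratio (anesthesia over awake) of the 10 genes was 0.09, against -0.02 over all measured genes. The 2 of 10 are few genes and stand near the share over all genes.

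**Figure D1:**
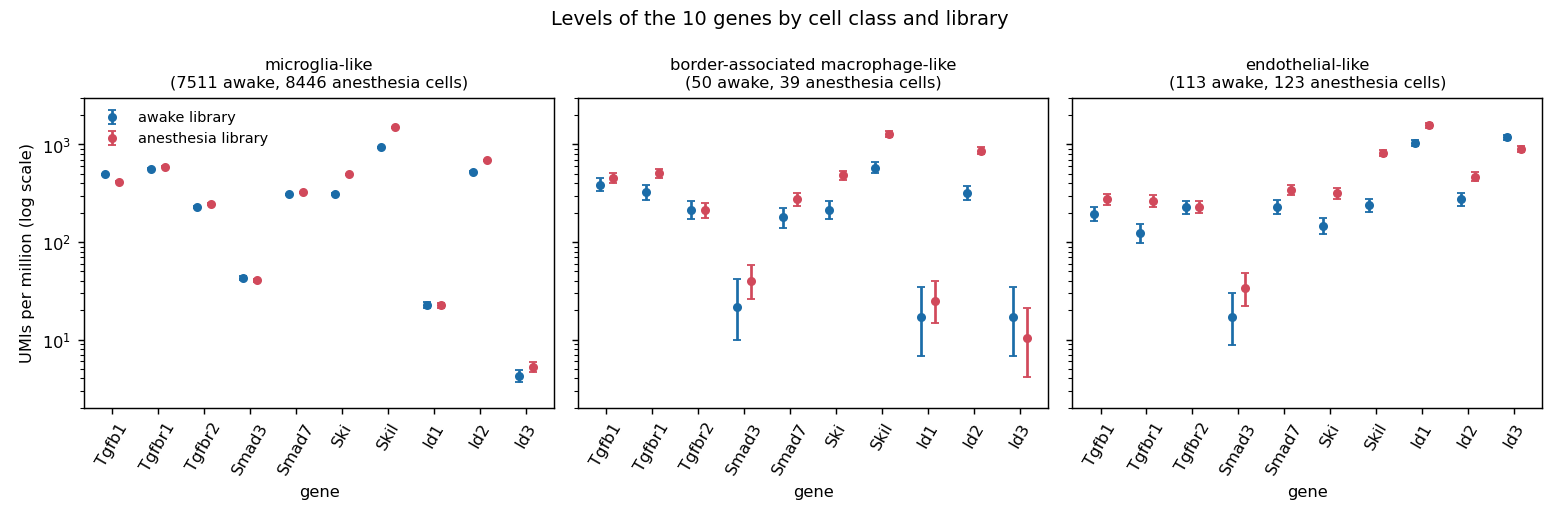
CPM (log scale; UMIs scaled to a total of 1000000) of each gene in the awake (blue) and anesthesia (red) library, in 1 panel per cell class, with exact Poisson 95% intervals that cover counting error only. Id1 and Id3 stand far higher in endothelial-like cells than in the other classes, and Ski and Skil are higher in the anesthesia library in all 3 panels.

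Among ligand and receptors, Tgfb1 was at 495 counts per 1000000 UMIs (CPM) of the microglia-like total awake (23854 UMIs) and 415 under anesthesia (23554 UMIs), which gave a log2 ratio of -0.25 (95% interval -0.28 to -0.23). Of the measured genes, 30.5% had a ratio at least as low, so this difference was of ordinary size for these libraries. Tgfbr1 was at 563 CPM awake and 591 CPM under anesthesia, a log2 ratio of 0.07 (0.05 to 0.09). Tgfbr2 was at 228 and 245 CPM, a log2 ratio of 0.11 (0.07 to 0.14). Both receptors were thus slightly higher, and both signs turned when the trend of the ratio on transcript GC content and length was taken out, to -0.26 for Tgfbr1 and -0.11 for Tgfbr2.

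Of the SMADs, Smad3, a signal transducer, was the scarcer one: 43.2 CPM awake and 40.6 CPM under anesthesia, a log2 ratio of -0.09 (-0.18 to -0.003). Smad7, which blocks the receptor, was at 308 and 323 CPM, a log2 ratio of 0.07 (0.04 to 0.10). The repressors differed more. Ski was at 312 CPM awake and 497 CPM under anesthesia, which is a log2 ratio of 0.67 (0.64 to 0.70). Skil was at 937 CPM (45110 UMIs) and 1494.8 CPM (84750 UMIs), and its log2 ratio was also 0.67 (0.66 to 0.69). With the GC and length trend taken out, Skil was at 0.30 and no longer reached 1.5-fold, and Ski was at 0.77. About 1 measured gene in 10 had a ratio as high as the uncorrected pair (10.6% for each), so the pair stood in the upper part of a wide distribution and not outside it.

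The Id genes differed by member. Id2 was at 526 CPM awake and 688 CPM under anesthesia, a log2 ratio of 0.39 (0.36 to 0.41), and 22.2% of measured genes were at least as high. Id1 was near the same level in both libraries, at 22.6 and 22.5 CPM (-0.01, interval -0.13 to 0.11). Id3 was at 4.22 CPM (203 UMIs) and 5.27 CPM (299 UMIs), a log2 ratio of 0.32 (0.06 to 0.59). These Id3 levels in microglia-like cells were 0.358% and 0.584% of the endothelial-like level, where the 10 endothelial markers stood at a median of 0.252% (0.116 to 3.82) and 0.234% (0.157 to 5.12). The tops of these ranges are set by Pecam1 awake and Bsg under anesthesia. Id1 stood at 2.20% and 1.43% of its endothelial-like level. At these levels, RNA of other cells and expression by microglia cannot be told apart for either gene.

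**Figure D2:**
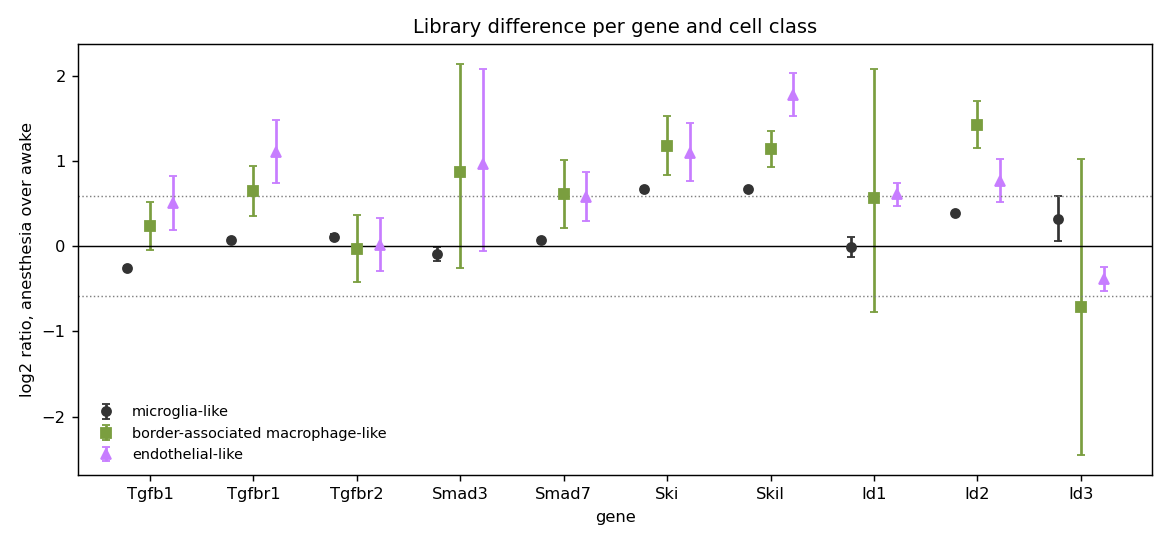
Log2 ratio of CPM, anesthesia over awake, for each gene in microglia-like (circles), border-associated macrophage-like (squares) and endothelial-like (triangles) cells, with exact 95% intervals for counting error, and dotted lines at 1.5-fold. Skil and Ski lie above 0 in all 3 classes, whereas Tgfb1 lies below 0 in microglia-like and above 0 in endothelial-like cells.

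The same genes differed in how they were spread over cells. After thinning every cell to 2000 UMIs (7324 awake and 8141 anesthesia microglia-like cells, with 187 and 305 shallower cells left out), Skil was seen in 81.9% (81.0 to 82.8) and 92.5% (91.9 to 93.1) of the cells. Ski was seen in 46.1% (45.0 to 47.3) and 61.6% (60.6 to 62.7), and Id2 in 44.5% (43.4 to 45.7) and 58.2% (57.2 to 59.3). Tgfb1 was seen in fewer anesthesia cells, 54.7% (53.6 to 55.8) against 61.2% (60.1 to 62.4). Without thinning the shares were 97.7% and 99.03% for Skil, 81.7% and 89.4% for Ski, 66.0% and 78.1% for Id2, and 91.5% and 84.8% for Tgfb1, in the same order of libraries. Each share thus moved the way its CPM did. No class is known to lack these 4 genes, so a background share cannot be given for them. Id2 was the unevenly held one: its variance over thinned cells was 2.71 times its mean in the awake and 2.24 times in the anesthesia library, against 1.09 and 1.08 for Tgfb1. The 10% of awake cells with the most Id2 held 48.4% of its UMIs, against 32.0% for Tgfb1, which has a similar mean per cell (1.01 and 0.99 UMIs).

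The libraries' microglia-like cells lay largely apart. In clusters 0 and 1 there were 3709 and 3082 awake cells with 94 and 106 anesthesia cells, and clusters 2, 3 and 4 held 2993, 2695 and 2093 anesthesia cells with 37, 58 and 41 awake cells. In the 6 clusters with at least 50 cells of each library, Skil was higher in the anesthesia library with an interval above 0 in 6 of 6, with log2 ratios from 0.31 to 0.92. Ski was higher in 6 of 6, with the interval above 0 in 5, from 0.20 to 0.84. Tgfb1 was lower with the interval below 0 in 6 of 6, from -0.45 to -0.28. These 3 differences were therefore seen inside these 6 clusters too. Clusters 2 and 4 were left out, with under 50 awake cells each. There Skil was at 1446 and 1616 CPM (awake and anesthesia) in cluster 2 and 1038 and 1401 CPM in cluster 4. Ski was at 387 and 518 CPM and at 313 and 462 CPM. Tgfb1 was at 574 and 437 CPM and at 510 and 401 CPM. Averaged over the 6 clusters with equal weights in both libraries, the ratio was 0.47 for Ski, 0.49 for Skil and -0.38 for Tgfb1, so neither repressor then reached 1.5-fold. Smad3 moved to -0.58, with an interval below 0 in cluster 0 (-1.04, interval -2.17 to -0.11), and Id1 was at -0.26. Smad7 turned sign, to -0.09.

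Id2 differed more between clusters than between libraries. Among the 6 clusters with at least 50 cells of each library, it was highest in cluster 7, at 1129 CPM (1087 to 1171) awake and 1328 CPM (1217 to 1446) under anesthesia. Cluster 7 was led by Clec7a, Lgals3, Lpl and Cst7, genes of the damage-associated microglial state. Id2 was also high in cluster 2, led by Nr4a3, Il1b and Klf10. There it was at 1277 CPM (1133 to 1434) in 37 awake cells and 829 CPM (818 to 839) in 2993 anesthesia cells. In the 2695 anesthesia cells of cluster 3 it was at 423 CPM (412 to 434). In the awake library it was at 341 CPM (334 to 349) in cluster 0, led by Klf2 and Tsc22d3, and 635 CPM (624 to 645) in cluster 1. Within the 6 clusters its log2 ratio had an interval above 0 in 5 of 6 and below 0 in cluster 3 (-0.34, interval -0.56 to -0.12). The average over the 6 was 0.14. Clusters 2 and 4, with 37 and 41 awake cells, were not among the 6, and Id2 was not higher under anesthesia in either. In cluster 4 it was at 690 CPM (588 to 806) awake and 663 CPM (648 to 678) under anesthesia. In cluster 10, led by the interferon-induced Ifit3 and Irf7, Id2 was at 411 CPM awake and 704 CPM under anesthesia, the highest of its within-cluster ratios (0.78, interval 0.57 to 0.99). The Id2 difference over all microglia-like cells was thus larger than the difference within most of the shared clusters.

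**Figure D3:**
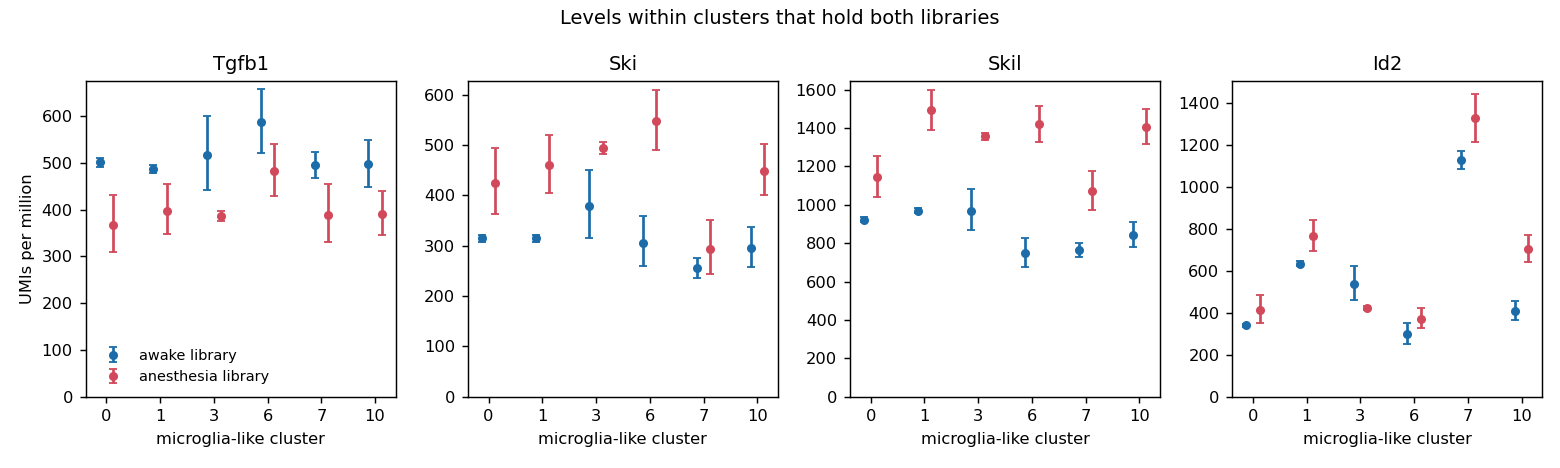
CPM of Tgfb1, Ski, Skil and Id2 in the 6 microglia-like clusters with at least 50 cells of each library, awake in blue and anesthesia in red, with exact Poisson 95% intervals. Tgfb1 is lower and Skil higher in the anesthesia library in each of the 6 clusters, while Id2 spans 300.1 to 1328 CPM between clusters.

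The wider pathway was read from 7 lists of 93 distinct genes, 72 of them measured in microglia-like cells. Some genes are in more than 1 list, Skil, Tgif1 and Smad7 among them. Among repressors, ubiquitin ligases and other regulators, 6 of 18 measured genes passed 1.5-fold upward and 0 downward. The median log2 ratio was 0.32. The shares over all measured genes are the 13.3% and 11.8% given above. Besides Ski and Skil these were Tob1, an antiproliferative SMAD-binding protein (130 to 251 CPM awake to anesthesia, 0.95), Tab2, an adaptor of the TAK1 kinase (145 to 244 CPM, 0.75), Tgif1, a homeodomain SMAD corepressor (221 to 362 CPM, 0.72), and the ubiquitin ligase Smurf2 (37.4 to 57.7 CPM, 0.63). Among the genes commonly induced by TGF-beta, 4 of 10 were higher and 0 lower. They were Klf10, first described as a TGF-beta-inducible early gene (99.7 to 287 CPM, 1.53), Tsc22d1 (63.7 to 124 CPM, 0.96), Tgif1 and Skil. The list was split. Smad7, Pmepa1 (735 to 684 CPM, -0.11) and Ldlrad4 (140 to 116 CPM, -0.27), which are feedback inhibitors, stayed under 1.5-fold. So did Junb (-0.29), Tgfbi (-0.21) and Cdkn1a (-0.12), and the list median was -0.02. Most of these genes also answer to other stimuli, and their values are not a measure of SMAD activity.

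Ligand handling went both ways. Thbs1, an activator of latent TGF-beta, was at 9.18 CPM awake and 21.1 CPM under anesthesia (1.20), and Gdf15, a stress-induced member of the superfamily, at 14.2 and 26.0 CPM (0.87). Nrros, which tethers latent TGF-beta1 on microglia and is needed for its activation there, was lower, at 165 and 109 CPM (-0.59, interval -0.64 to -0.55). These made 2 higher and 1 lower of 7 measured. For this list and those below, 13.3% of all measured genes were higher and 11.8% lower. Of 11 receptors and co-receptors, the activin receptor Acvr2a was higher (10.7 and 19.9 CPM, 0.89) and Acvrl1, a BMP9 receptor, lower (23.0 and 14.4 CPM, -0.67). Of 9 SMADs and anchors only Smad6, the inhibitory SMAD of the BMP branch, passed 1.5-fold, at 2.43 and 6.79 CPM (1.48, interval 1.18 to 1.79) from 117 and 385 UMIs. The Id genes and their E-protein partners had 0 of 6 past 1.5-fold in either direction. Tcf12, an E protein, was at 49.1 and 65.1 CPM (0.41) and Tcf3 at 42.3 and 33.6 CPM (-0.33). As averages within clusters, Thbs1 (0.54) and Acvrl1 (-0.37) fell under 1.5-fold. Gdf15 (0.99), Nrros (-0.69), Acvr2a (0.85) and Smad6 (1.11) stayed past it, and the receptor Acvr1b moved from -0.39 to -1.32.

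Microglial genes known to depend on TGF-beta showed 1 lower and 0 higher of 16, where 11.8% of all measured genes were lower and 13.3% higher. Their median log2 ratio was -0.12, against -0.02 over all measured genes. The one past 1.5-fold was Gpr34, a lysophosphatidylserine receptor (1143 and 678 CPM, -0.75). Fcrls (2203 and 1609 CPM, -0.45) and Tmem119 (1482 and 1137 CPM, -0.38) were lower by less, P2ry12 was at 1804 and 1701 CPM (-0.08), and Sall1, a transcription factor of microglial identity, at 179 and 177 CPM (-0.02). With the GC and length trend taken out, the list median was -0.05, Tmem119 stood at -0.09 and P2ry12 at -0.32. In the main reading, 3 of the 16 genes lay above 0. The highest was Siglech, at 1047 and 1253 CPM (0.26, interval 0.24 to 0.28). Averaged within clusters, the counts past 1.5-fold were 3 of 18 for the regulators, 2 of 10 for the induced genes and 1 of 16 lower for the dependent genes. Over all measured genes in that reading 11.8% were higher and 16.7% lower.

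**Figure D4:**
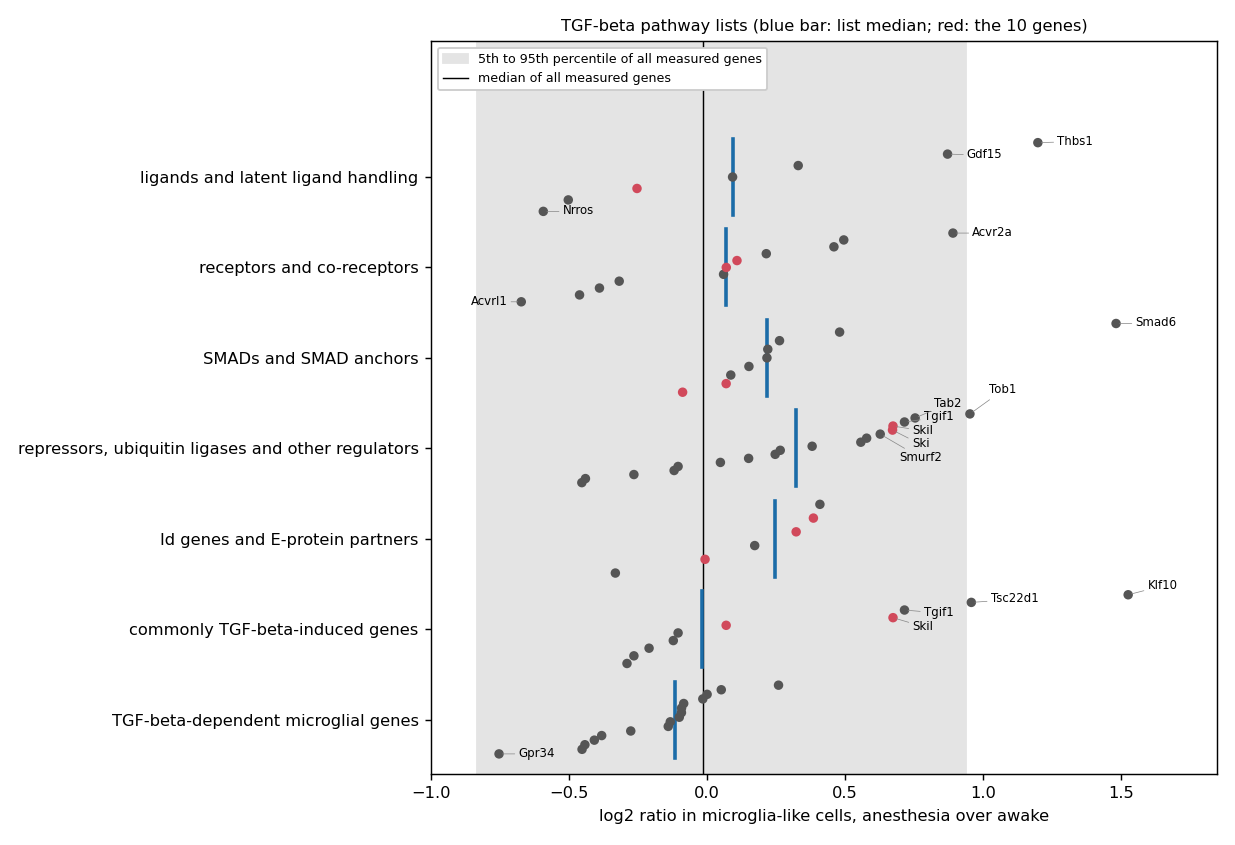
Log2 ratio in microglia-like cells of every measured gene in 7 pathway lists, with genes past 1.5-fold named, list medians as blue bars and the 10 genes in red. The grey band spans the 5th to 95th percentile of all measured genes (-0.83 to 0.94), and Thbs1, Smad6, Tob1, Tsc22d1 and Klf10 lie beyond its upper end.

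Endothelial-like cells differed from microglia-like cells most in the BMP-linked Id genes. Id3 was at 1179 CPM (1100.3 to 1263) awake and 903 CPM (840.0 to 970.3) under anesthesia, against 4.22 and 5.27 CPM in microglia-like cells. Id1 was at 1031 CPM (957 to 1109) and 1573 CPM (1489 to 1660), against 22.6 and 22.5 CPM. After thinning, the share of endothelial-like cells with an Id1 UMI was 75.5% (66.2 to 83.3) awake and 88.4% (81.0 to 93.7) under anesthesia, against 4.43% of anesthesia microglia-like cells, and Id3 in 84.0% and 78.6% against 1.01% and 0.946%. Without thinning, the shares in endothelial-like cells were 92.0% and 95.1% for Id1 and 93.8% and 94.3% for Id3. Median depth before thinning was 5507 and 4535 UMIs in endothelial-like and 5953 and 5433 in microglia-like cells. Id1 and Id3 therefore stood out in this class in both libraries.

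Between libraries, 5 of the 9 members with at least 50 UMIs in endothelial-like cells were at least 1.5-fold higher under anesthesia with the interval off 0, where 16.3% of the 4900 measured genes were, and 0 of 9 lower, where 18.4% were. They were Skil (240 and 823 CPM, log2 ratio 1.78, interval 1.53 to 2.03), Tgfbr1 (123 and 264 CPM, 1.10), Ski (147 and 316 CPM, 1.10), Id2 (274 and 468 CPM, 0.77) and Id1 (0.61, interval 0.48 to 0.74). Smad7 was at 228 and 342 CPM (0.58), Tgfb1 at 194 and 276 CPM (0.51), Tgfbr2 at 227 and 230 CPM (0.02) and Id3 lower (-0.38, interval -0.53 to -0.24). Smad3 had 12 and 28 UMIs and is not counted. Most of these genes are held by microglia, and the share of microglial RNA in this class differed between the libraries as given above. The 10 endothelial markers moved too: they summed to 35086 CPM awake and 19209 CPM under anesthesia, with Cldn5 at 5734 and 3258 CPM and Bsg at 14723 and 5688 CPM. The median mitochondrial share was 3.82% and 4.91%. Their part in these ratios was not tested.

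With that share taken off each library (18.6% and 43.0% of the microglia-like level), Skil stayed at 1.46 and Id1 at 0.61. Ski was at 0.19 and Smad7 at 0.25, and Tgfbr1 (-0.87), Id2 (-0.03) and Tgfb1 (-0.07) changed sign. The rest was not scaled up again, which lowers these ratios. A second reading used the 81 awake and 62 anesthesia endothelial-like cells whose microglia-marker level was under 10% of that of microglia-like cells. There Skil was at 115 CPM (50 UMIs) and 342 CPM (88 UMIs), a log2 ratio of 1.58 (1.06 to 2.11). Id1 was at 1243 CPM (541 UMIs) and 2805 CPM (721 UMIs), a ratio of 1.17 (1.01 to 1.34). Over thinned cells of the whole class, the Id1 variance was 2.09 (awake) and 3.62 (anesthesia) times its mean. The intervals leave out this spread between cells. Smad7 (211 and 362 CPM, 0.78, interval 0.34 to 1.21) and Id2 (225 and 377 CPM, 0.75, interval 0.33 to 1.17) were also higher. The intervals of Tgfb1, Tgfbr1, Tgfbr2, Smad3, Ski and Id3 held 0, and Id3 turned sign (1378 and 1544 CPM, 0.16, interval -0.02 to 0.35). Skil was thus higher in the anesthesia library in all 3 readings. Id1 was higher in the whole class and in the cells low in microglia markers, and the subtraction could hardly move it. The lower Id3 was not seen in the cells low in microglia markers. Id1 did not reach 1.5-fold under the stricter cell filter (minimums of 1000 genes and 2000 UMIs, mitochondrial share up to 5%), where its log2 ratio over the whole class was 0.17. Both readings were chosen after seeing the data.

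**Figure D5:**
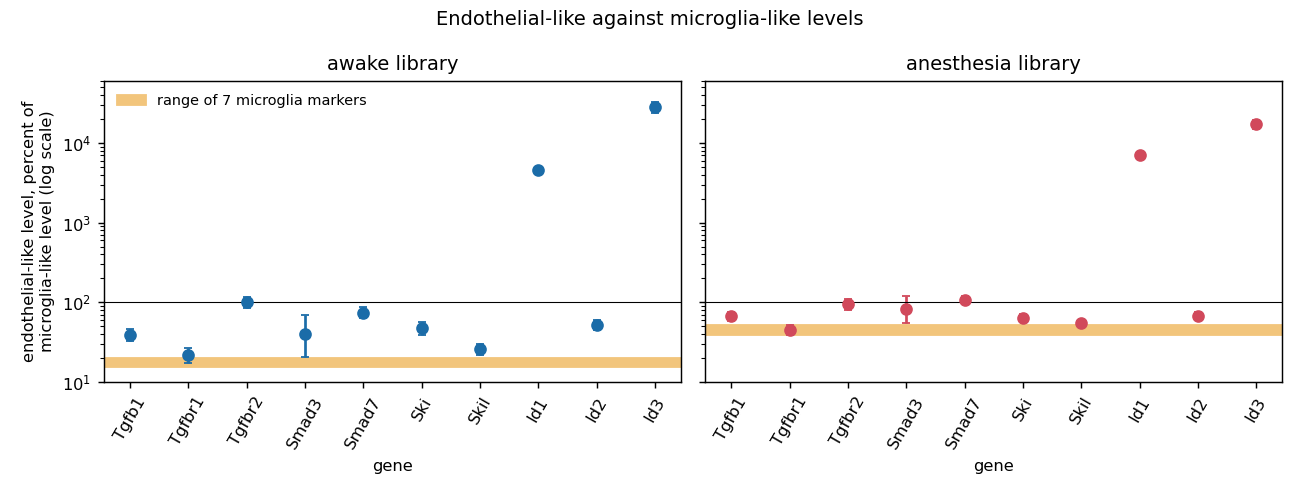
Endothelial-like level of each gene as a percent of its microglia-like level (log scale), awake and anesthesia libraries in separate panels, with 95% intervals for counting error. The orange band is the range of 7 microglia markers (15.4 to 20.2% awake, 38.7 to 51.6% under anesthesia). Tgfbr1 stands close to the band in both panels, and Id1 and Id3 stand above 100% by far.

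The wider lists gave 3 further endothelial-like values of this kind. Smad6 was at 28.6 CPM awake and 99.6 CPM under anesthesia (1.80, interval 1.08 to 2.59), above its 2.43 and 6.79 CPM in microglia-like cells. Bmpr2, the BMP type 2 receptor, was at 251 and 397 CPM (0.66, interval 0.39 to 0.93). Tgfb2, which had 42 and 24 UMIs in all microglia-like cells, was at 214 and 84.0 CPM (-1.35, interval -1.78 to -0.93). These 3 genes were chosen after their values were seen.

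In macrophage-like cells, 7 members had at least 50 UMIs, 5 of them at least 1.5-fold higher under anesthesia with the interval off 0, where 15.8% of 3555 measured genes were, and 0 lower, where 10.1% were. They were Id2 (320 and 859 CPM, log2 ratio 1.43, interval 1.15 to 1.71), Ski (213 and 482 CPM, 1.18), Skil (577 and 1274 CPM, 1.14), Tgfbr1 (325 and 507 CPM, 0.64) and Smad7 (179 and 274 CPM, 0.61). Tgfb1 was at 388 and 457 CPM (0.24) and Tgfbr2 at 216 and 211 CPM (-0.03). With the microglial share taken off (57.04% and 87.3% of the microglia-like level), Id2 stayed past 1.5-fold, at 19.5 and 259 CPM. Ski was left at 35.3 and 48.3 CPM, a log2 ratio of 0.45. The rest was not scaled up again, which lowers these ratios, so whether Ski stayed past 1.5-fold cannot be read from this value. Skil, Tgfbr1 and Smad7 were left at 42.2, 3.53 and 3.51 CPM awake and below 0 under anesthesia. The composition of the class differed between the libraries. The 10 macrophage markers summed to 4511 CPM awake and 1703 CPM under anesthesia, with Pf4 at 1739 and 350.4 CPM and Lyve1 at 245 and 66.5 CPM. Only 25 of 50 awake and 3 of 39 anesthesia cells held microglia markers at under 50% of the microglia-like level, and the median depth was 7199.5 and 13237 UMIs. No doublets were removed. A difference in the macrophages' own RNA, in the share of microglial RNA and in the number of doublets or misnamed cells cannot be told apart here.

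The anesthesia macrophage-like levels lay close to the microglia-like ones of that library: Ski at 97.0% of the microglia-like level, Tgfbr1 at 85.8%, Skil at 85.3% and Smad7 at 84.6%, against 68.4%, 57.7%, 61.5% and 58.2% in the awake library. All of these but the anesthesia value of Ski lie within the range of the 7 microglia markers in the same library. Id2 went past that range under anesthesia, at 60.7% awake and 125% under anesthesia, where it was higher in macrophage-like than in microglia-like cells (log2 ratio 0.32, interval 0.20 to 0.44). Id3 was seen as 7 UMIs in each library and Id1 as 7 and 17.

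Ordered by level across the 3 classes, Tgfb1, Tgfbr1, Ski and Skil ran from microglia-like through macrophage-like to endothelial-like cells in the awake library. In the anesthesia library Tgfb1 and Ski did not differ beyond counting error between microglia-like and macrophage-like cells (macrophage-like over microglia-like 0.14, interval -0.03 to 0.30, and -0.04, interval -0.21 to 0.11). Tgfbr2 did not differ beyond counting error between any of the 3 classes, with intervals that held 0 in both libraries (endothelial-like over microglia-like 0.00, interval -0.24 to 0.22, awake and -0.09, interval -0.30 to 0.11, under anesthesia). These levels include the microglial RNA of the small classes. With it taken off, and the rest not scaled up again, Tgfbr2 was at 185 and 125 CPM in endothelial-like cells. In macrophage-like cells it was then at 85.8 and -2.68 CPM. The like levels do not show that the classes hold Tgfbr2 alike. Smad7 was lower in endothelial-like than in microglia-like cells in the awake library (-0.43, interval -0.67 to -0.21) and not beyond counting error in the anesthesia library (0.08, interval -0.09 to 0.25).

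Over the 6 combinations of class and library, which share libraries, depth and microglial RNA, the genes with the pattern most like Tgfbr1 among 5820 were P2ry12, Tgif2 and Slc25a5 (Pearson r of log2(CPM + 1) 0.998, 0.998 and 0.997). For Skil they were Fam217b, Foxn3 and Usp9x (0.999, 0.997 and 0.996), and for Id3 Adipor2, Aplp2 and App (0.999, 0.998 and 0.998). P2ry12 is a microglial purine receptor and 1 of the 7 markers of microglial RNA used above. Across thinned microglia-like cells, the Pearson r among the 45 pairs ran from -0.02 to 0.03 in 7324 awake cells and from -0.03 to 0.05 in 8141 anesthesia cells. The awake mean per thinned cell ran from 0.0109 UMIs for Id3 to 1.89 for Skil, with a variance at most 1.39 times the mean for the members other than Id2 (2.71). In counts this sparse, values near 0 are no sign that the genes vary apart. In endothelial-like cells the highest of the 45 pairs was Tgfb1 with Skil in the awake library (0.25, 106 cells). It was Id1 with Id3 in the anesthesia library (0.47, 112 cells). The lowest pairs were Tgfb1 with Id3 awake (-0.21) and Tgfbr1 with Id3 under anesthesia (-0.38). These cells differ in microglial RNA, and its part in the values was not tested.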

How the data were processed

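The deposited files are sparse matrices of whole-number UMI counts per gene and barcode, with no scaling. The submitters' processing notes name bcl2fastq and Cell Ranger 3.1.0 with GRCm38, whereas the file headers name Cell Ranger 4.0.0. The lowest barcode held 501 UMIs, and the authors' cell calling is not given in the sources used here.

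Cells of 500 or more genes, 1000 or more UMIs and no more than 10% mitochondrial UMIs were kept and clustered with scanpy 1.11.5 and leidenalg 0.10.2 (2000 variable genes, 30 principal components, 15 neighbours, resolution 0.6). The 10 genes, the wider lists and mitochondrial, ribosomal protein and hemoglobin genes did not enter the variable genes. Classes were named from 10 markers for each of 15 types. The macrophage cluster was split again at resolution 0.3, after seeing that it held shallow barcodes with platelet RNA and cycling cells. Scrublet called 0 awake and 1 anesthesia cell, so it did not work here, and no doublets were removed.

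UMI counts were summed per class and library and scaled to a total of 1000000. Ratios carry the exact conditional binomial (Clopper-Pearson) 95% interval, levels exact Poisson and shares exact Clopper-Pearson intervals. Measured genes had at least 200 UMIs in microglia-like cells or at least 50 in the smaller classes, the latter a threshold set after seeing the data. Coordinates, exons and transcript lengths come from GENCODE M21. From each wider list, up to 3 genes past 1.5-fold in each direction were named by rule, and others after their values were seen. A gene of the list of TGF-beta-induced genes is not reported here and was left out of its counts and median. The interval and the 1.5-fold call were tested on simulated Poisson counts, which is the model the interval assumes. Such counts hold no spread between cells or mice. The genes, lists and classes were chosen with earlier results of these data known.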

Additional observations from a re-analysis of the deposited data

Results flagged for a closer look

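Tgfb1 differed in opposite directions in 2 classes: the log2 ratio, anesthesia over awake, was -0.25 in microglia-like and 0.51 in endothelial-like cells, a gap of 0.76. With microglial RNA taken off, and the rest not scaled up again, which lowers the ratio, the endothelial-like value was -0.07. In endothelial-like cells with little microglial RNA, Tgfb1 was at 0.27 (interval -0.34 to 0.87). Id3 went the other way, 0.32 in microglia-like and -0.38 in endothelial-like cells, a gap of -0.71. The microglia-like value rests on 203 and 299 UMIs, a level at which expression cannot be told apart from RNA of other cells. In endothelial-like cells with little microglial RNA its value was 0.16. Neither difference between classes was tested, since each class has 1 library per group.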

How the results depend on the processing

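The count of members at least 1.5-fold higher in microglia-like cells was 2 in the main reading, 0 as a within-cluster ratio and 4 with the lower of the fold limits tried, and 2 under the other 10 alternatives. With the GC and length trend removed the 2 were Ski (0.77) and Id3 (0.69), not Skil (0.30). The count lower was 0 under all 12. The within-cluster ratio turned Smad7 to -0.0924 in microglia-like cells, and removal of the GC and length trend turned Tgfbr1 to -0.26 and Tgfbr2 to -0.11. With free microglial RNA taken off, Tgfb1 (-0.0689), Tgfbr1 (-0.870) and Id2 (-0.0334) turned in endothelial-like cells. The rest was not scaled up again there, which lowers these ratios. Id3 turned (0.16) in endothelial-like cells under 10% of the microglia-marker level. Beyond the scaling, the cause of the turns was not tested. Over all genes tested, the within-cluster ratio put 11.8% higher and 16.7% lower. Over 10 alternatives the log2 ratio in microglia-like cells ran from 0.47 to 0.77 for Ski, 0.30 to 0.71 for Skil, 0.14 to 0.43 for Id2 and -0.38 to -0.07 for Tgfb1. In endothelial-like cells it ran from 1.46 to 2.03 for Skil and 0.17 to 1.17 for Id1. Id1 was lowest there under the stricter cell filter, which ended its 1.5-fold call. The alternatives on free RNA, on cells low in microglia markers, on the whole macrophage cluster and without the shallow cluster 6 were added after seeing the data. With 1 library per group, no replicate could be left out. No paired analysis was possible because each group has 1 library and no test was run. Depth limits Smad3, Id1 and Id3 in the macrophage-like class, where each had under 30 UMIs per library.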

Other observations

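Outside the 3 classes, the 41 awake and 83 anesthesia choroid plexus or ependymal-like cells held Id3 at 252 and 172 CPM, and Id1 at 252 and 92.9 CPM. Both lay between the microglia-like and the endothelial-like level. Skil in these cells was at 351 CPM (290 to 422) awake and 549 CPM (491 to 612) under anesthesia. An unnamed cluster led by Cpe and Slc1a2, genes of astrocytes, with all 10 microglia markers seen, held 371 awake and 190 anesthesia cells. There Skil was at 887 and 1335 CPM, Ski at 289 and 475 CPM and Tgfb1 at 491 and 410 CPM, close to the microglia-like values of the same libraries. Its Id3 was at 37.4 CPM (30.2 to 45.7) and 29.7 CPM (21.4 to 40.1). Neutrophil-like cells numbered 21 and 3, and Id3 had 0 UMIs in them, which allows up to 12.0 CPM in the awake library by the exact Poisson interval.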
